A study of Mus musculus with 25 samples.

Results

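Cadherins and protocadherins are calcium-dependent adhesion proteins. The genes described here are the protein-coding mouse genes named Cdh with a number, Pcdh, Celsr1 to Celsr3, Fat1 to Fat4, Dchs1, Dchs2 and Clstn1 to Clstn3. RefSeq holds 104 such genes, and 103 of them were among the 36528 gene IDs measured. Dchs2 had no matching ID. The members comprised 57 genes of the alpha, beta and gamma protocadherin clusters and 46 genes outside them. Their summed counts were between 0.408% and 1.15% of the counts of a library. In that sum, reads from exons common to several genes may be held repeatedly.

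RNA was sequenced from NeuN+ neurons and Gfap+ astrocytes sorted from brains of 6-month-old mice. One genotype was hMAPT-P301S transgenic, carrying human tau with the P301S mutation, and the other was the non-transgenic littermate (non-Tg). The astrocytes came as 5 libraries from P301S and 6 from non-Tg mice, the neurons as 6 and 8. Myeloid cells (Cd11b+) sorted alongside were not analysed here. The sources used here do not give the promoter of the transgene, the brain region or the number of animals in a library, so p-values measure only the spread between these libraries. In such sorted bulk samples, fewer cells of a type and less RNA per cell cannot be told apart.

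Classical cadherins join cells by binding the same cadherin on the neighbouring cell, and link through catenins to actin. Type I cadherins such as N-cadherin (Cdh2) are broadly expressed in the nervous system, whereas type II cadherins mark particular neuron classes and contribute to the choice of synaptic partners. Clustered protocadherins are made by choosing 1 variable exon per transcript. In the alpha and gamma clusters that exon is spliced to constant exons shared by the whole cluster, and the combinations give a neuron a surface identity. Fat and Dachsous proteins and the Celsr proteins belong to planar cell polarity, the alignment of cells within a sheet. Calsyntenins are cadherin-repeat proteins of the synapse.

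Promoter sequence is shown for 4 members outside the clusters, 3 of which differed between the cell types below. Celsr3, Pcdh8 and Pcdh20 were higher in neurons than in astrocytes, and Pcdh17 was not called. Each stretch is written 5′ to 3′ on the gene's strand and has CG dinucleotides in capitals (RefSeq, GRCm38.p6). All but that of Celsr3 end at the last base before the RefSeq gene. The 250-base window before Celsr3 ends at 108826044, and only its first 228 bases are shown. The stretches are chr9:108825795-108826022 on the plus strand for Celsr3, chr14:79771313-79771562 on the minus strand for Pcdh8, chr14:88471397-88471646 on the minus strand for Pcdh20 and chr14:84443313-84443562 on the plus strand for Pcdh17. No annotated exon overlaps them.
Celsr3: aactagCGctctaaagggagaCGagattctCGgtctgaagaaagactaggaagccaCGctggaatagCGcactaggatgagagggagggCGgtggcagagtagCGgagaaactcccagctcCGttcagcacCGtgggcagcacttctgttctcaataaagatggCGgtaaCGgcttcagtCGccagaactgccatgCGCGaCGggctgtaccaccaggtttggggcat
Pcdh8: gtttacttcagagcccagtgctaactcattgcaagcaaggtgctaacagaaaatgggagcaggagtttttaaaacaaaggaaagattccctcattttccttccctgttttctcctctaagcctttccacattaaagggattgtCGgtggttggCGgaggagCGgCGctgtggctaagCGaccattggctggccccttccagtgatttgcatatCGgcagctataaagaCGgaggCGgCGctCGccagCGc
Pcdh20: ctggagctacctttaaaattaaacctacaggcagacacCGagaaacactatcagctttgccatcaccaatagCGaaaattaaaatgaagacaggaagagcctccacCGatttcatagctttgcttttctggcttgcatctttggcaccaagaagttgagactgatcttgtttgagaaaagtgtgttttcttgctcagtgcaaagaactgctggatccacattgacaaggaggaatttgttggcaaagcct
Pcdh17: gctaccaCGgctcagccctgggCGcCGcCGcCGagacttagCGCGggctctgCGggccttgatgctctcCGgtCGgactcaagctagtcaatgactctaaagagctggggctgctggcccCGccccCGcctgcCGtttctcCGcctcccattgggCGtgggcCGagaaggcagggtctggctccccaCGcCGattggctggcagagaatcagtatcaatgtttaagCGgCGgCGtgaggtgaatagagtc
The Pcdh20 stretch holds 3 CG dinucleotides in 250 bases, that of Pcdh8 11 and that of Pcdh17 21, while the Celsr3 stretch holds 15 in 228 bases. Over 32851 RefSeq promoters cut to the same 250 bases the median was 6. The GC box GGGCGG, searched on both strands, occurs 1 time in the Celsr3 and 1 time in the Pcdh17 stretch, and 32.7% of all such promoters hold it. The full 250-base window of Celsr3, the length used for all promoters, holds 17 CG dinucleotides and 2 GC boxes. The TATA motif TATAAA, searched likewise and sharing no letters with the GC box, occurs 1 time in the Pcdh8 stretch and in 12.4% of all promoters. The 3 members higher in neurons thus share neither motif, and the member that was not called has the most CG dinucleotides. A match describes letters only.

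Library totals ran from 1.25e+06 to 4.45e+06 counts, so that 3 counts correspond to between 0.674 and 2.41 CPM, the count scaled to the library total. Levels below are CPM scaled by the TMM method over all 25 libraries. Of 9 neuron markers 7 were higher in non-Tg neurons than in non-Tg astrocytes, and all 10 astrocyte markers were lower, as the sort labels say. The neuron markers still summed to between 495 and 685 CPM in non-Tg astrocytes and between 600 and 1011 CPM in P301S astrocytes. In neurons of either genotype they summed to between 1780 and 2551 CPM. The astrocyte markers summed to between 11814 and 24855 CPM in astrocytes and between 224 and 556 CPM in neurons. The 9 oligodendrocyte markers summed to between 202 and 532 CPM in non-Tg astrocytes and to between 388 and 1302 CPM in P301S astrocytes, against 41.7 to 87.5 CPM in neurons of either genotype. The myelin gene Opalin was at 0 in all non-Tg neuron libraries. The mural and fibroblast markers summed to between 69.9 and 215 CPM in astrocytes and to between 8.23 and 32.7 CPM in neurons. The mitochondrial share of counts was 2.31% to 11.4% in astrocytes and 0.569% to 2.43% in neurons, ranges that overlapped. The labels' protocol gives a smaller RNA yield for astrocytes than for neurons. At least 3 counts were found for 63 to 92 members in P301S astrocyte libraries, 82 to 94 in non-Tg astrocyte, 90 to 93 in P301S neuron and 86 to 97 in non-Tg neuron libraries. Of the other marker lists, 3 of 4 tested oligodendrocyte precursor markers were lower and 1 higher in non-Tg neurons, as were 3 lower and 1 higher of 5 mural and fibroblast markers. None of 7 microglia markers was called. For 1 of 7 endothelial markers and 2 of 5 ependymal and choroid plexus markers a test was possible, with 1 higher and 1 lower, and the endothelial sum stayed at or below 25.1 CPM in every library.

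Of 92 members tested, 30 were higher and 35 lower in neurons (edgeR quasi-likelihood test, Benjamini-Hochberg adjusted p under 0.05 over 14197 genes). Over all genes tested, 21.8% were called higher and 25.1% lower. The 14 alpha and 21 gamma genes make up 35 of these 65 calls and, as shown further below, are not independent of each other. Outside them 16 members (28.1%) were higher and 14 (24.6%) lower of 57 tested, shares near those over all genes. The median log2 difference, neurons minus astrocytes, was -0.08 over those 57 members and -0.11 over all genes. The groups of libraries did not overlap for 26 of the members higher and 34 of those lower in neurons, and for 31.2% of all genes. Outside the alpha and gamma clusters these were 12 and 13 of 57 members.

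**Figure D1:**
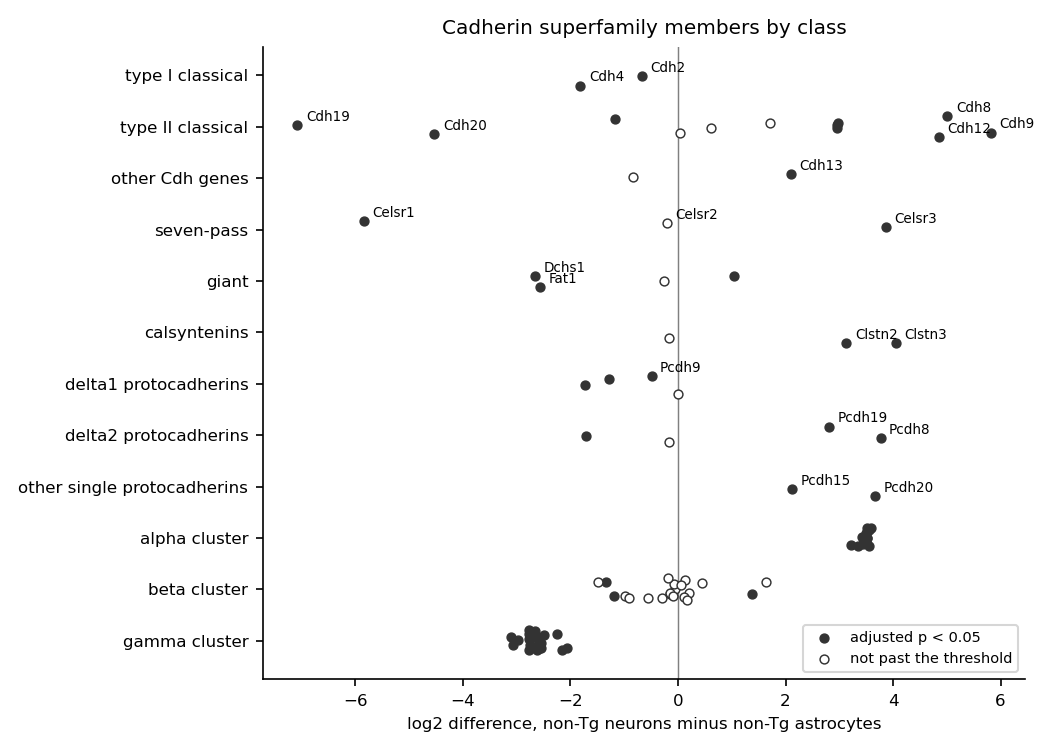
Log2 difference between non-Tg neurons (8 libraries) and non-Tg astrocytes (6 libraries) for each of 92 tested members, by class, with positive values higher in neurons; filled points passed an adjusted p of 0.05. Type II and Celsr cadherins lie on both sides of 0, from -7.08 for Cdh19 to 5.82 for Cdh9, while the alpha cluster lies at 3.21 to 3.59 and the gamma cluster at -3.11 to -2.06.

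The type II classical cadherins divided most widely between the cell types. Of 12 tested, 6 were higher and 3 lower in neurons. Cdh9, a cadherin of hippocampal synapses, was the member with the smallest p. It had 117 to 169 CPM in the 8 non-Tg neuron libraries, with a median of 128, and 0.292 to 4.75 CPM, with a median of 1.54, in the 6 non-Tg astrocyte libraries. The groups lay far apart, with a log2 difference of 5.82 (SE 0.43, adjusted p = 4.23e-13).

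Cdh8 and Cdh12, likewise type II cadherins of neurons, followed the same pattern. Cdh8 had 104 to 184 CPM (median 147) in non-Tg neurons and 0.292 to 11.8 CPM (median 3.45) in non-Tg astrocytes, a log2 difference of 5.01 (SE 0.43, adjusted p = 1.35e-11). Cdh12 had 43.4 to 91.0 CPM (median 68.7) and 0.875 to 5.39 CPM (median 1.80), a difference of 4.86 (SE 0.45, adjusted p = 8.99e-11). No astrocyte library reached the lowest neuron library for either gene. Cdh7 was higher in neurons by 2.96 (SE 0.47, adjusted p = 2.72e-06) at a lower level, with a median of 21.1 CPM. Cdh18 and Cdh24 were called higher as well, by 2.97 and 2.96, with medians of 14.9 and 3.90 CPM in neurons.

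Cdh19 and Cdh20, both on chromosome 1, were the type II cadherins of the astrocyte libraries. Cdh19, known from glia of the peripheral nerve lineage, had 64.2 to 222 CPM (median 101) in non-Tg astrocytes and 0 to 2.13 CPM (median 0.873) in non-Tg neurons, a log2 difference of -7.08 (SE 0.56, adjusted p = 2.12e-12). Every non-Tg neuron library was at or near the level of 3 counts. Cdh20 was unusually even in non-Tg astrocytes, with 106 to 125 CPM (median 120), and had 2.77 to 14.4 CPM (median 3.33) in non-Tg neurons, a difference of -4.53 (SE 0.39, adjusted p = 1.54e-11). The oligodendrocyte markers given above differ between the same libraries in the same direction, and their part in these differences was not tested.

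Other type II members differed less between the cell types. Cdh11, expressed widely in brain and in connective tissue, had the second highest level per length of the class in neurons. Its log2 difference was 0.62 (SE 0.27, adjusted p = 0.0563), and it was called with RLE size factors (0.81, adjusted p = 0.0125). Cdh10 was lower in neurons by 1.17 on the log2 scale (SE 0.23, adjusted p = 6.74e-05), with 27.7 to 55.2 CPM against 81.3 to 136 CPM, ranges that did not overlap. Cdh6 differed by 0.04 (adjusted p = 0.944).

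**Figure D2:**
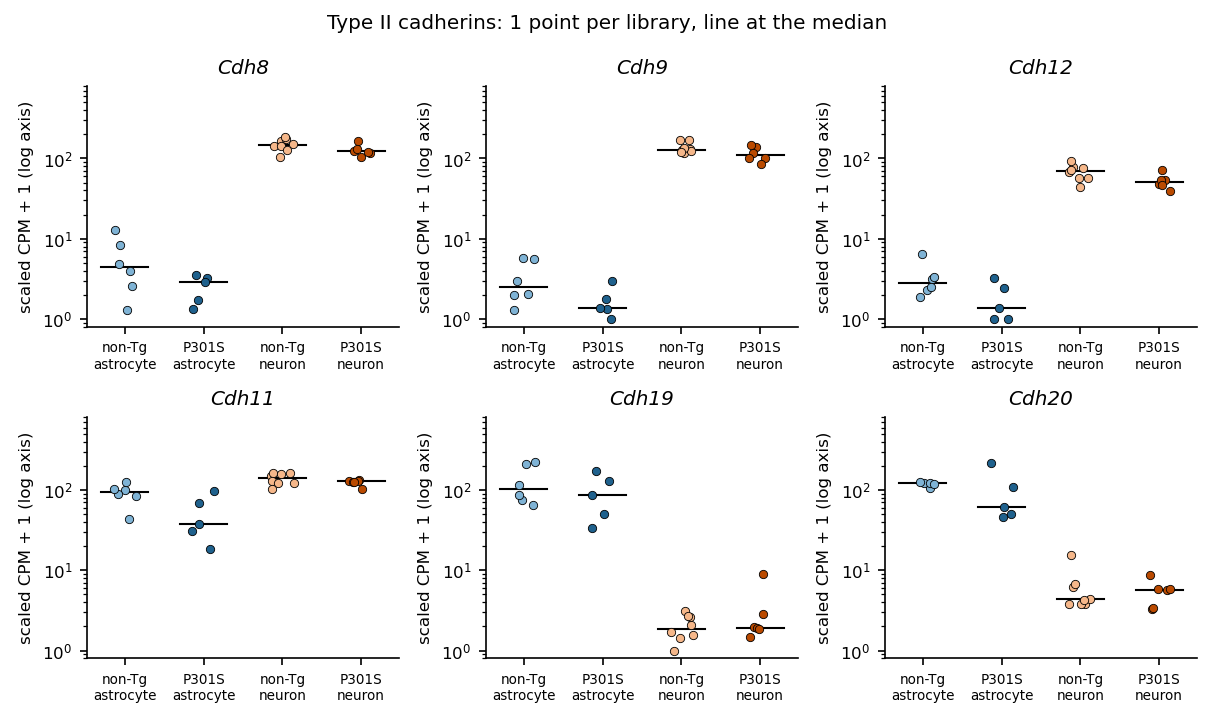
Scaled CPM plus 1 (log axis) of 6 type II cadherins in each library, by group (non-Tg astrocyte n = 6, P301S astrocyte n = 5, non-Tg neuron n = 8, P301S neuron n = 6); lines are medians. Cdh8, Cdh9 and Cdh12 lie higher in both neuron groups, Cdh19 and Cdh20 in both astrocyte groups, and Cdh11 overlaps.

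Type I cadherins differed less. N-cadherin (Cdh2) had 84.0 to 138 CPM in non-Tg neurons and 152 to 222 CPM in non-Tg astrocytes, a log2 difference of -0.68 (SE 0.21, adjusted p = 0.00807). It was lower by 0.48 with RLE size factors, which did not pass the threshold (adjusted p = 0.0570). R-cadherin (Cdh4) was lower in neurons by 1.81 on the log2 scale (SE 0.45, adjusted p = 0.00105), at medians of 4.19 and 13.7 CPM. The epithelial E-cadherin (Cdh1) and P-cadherin (Cdh3), the muscle cadherin Cdh15 and the endothelial type II cadherin Cdh5 did not pass the filter on low counts. Among Cdh genes of other structure, T-cadherin (Cdh13), which has a lipid anchor in place of a cytoplasmic tail, was higher in neurons by 2.10 (SE 0.71, adjusted p = 0.0151), and its libraries overlapped. Cdh23, a tip-link protein of hair cells, had a difference of -0.84 (adjusted p = 0.153).

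The 3 Celsr genes, the mammalian counterparts of the fly gene flamingo, each took a different position. Celsr1 had 16.7 to 53.9 CPM (median 41.8) in non-Tg astrocytes and 0 to 1.11 CPM (median 0.698) in non-Tg neurons, a log2 difference of -5.84 (SE 0.52, adjusted p = 3.07e-11). Celsr3, needed for the guidance of axon tracts, had 85.9 to 319 CPM (median 188) in non-Tg neurons and 5.84 to 31.4 CPM (median 9.87) in non-Tg astrocytes, a difference of 3.87 (SE 0.42, adjusted p = 2.06e-09). Celsr2 overlapped, with medians of 56.0 CPM in neurons and 69.2 CPM in astrocytes and a difference of -0.21 (SE 0.27, adjusted p = 0.560).

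Among their polarity partners outside the family, 2 of 12 were higher and 5 lower in non-Tg neurons. Fjx1, which encodes a kinase of the Four-jointed family, differed by -3.60 on the log2 scale (SE 0.37, adjusted p = 7.55e-10), and the Frizzled receptor gene Fzd6 differed by -6.27 (SE 0.84, adjusted p = 1.51e-07). Prickle2, a cytoplasmic polarity component, was higher by 1.88 (SE 0.32, adjusted p = 8.65e-06).

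Of the giant cadherins Fat1 was lower in neurons, with 27.0 to 45.5 CPM (median 35.7) against 168 to 283 CPM (median 205) and a log2 difference of -2.57 (SE 0.21, adjusted p = 7.87e-12). Dchs1, the ligand of Fat4, was lower by 2.65 on the log2 scale (SE 0.48, adjusted p = 2.45e-05), whereas its receptor Fat4 was higher by 1.05 (SE 0.29, adjusted p = 0.00340) with overlapping libraries. Fat3 had the highest level of the class in either cell type, and its difference was -0.26 (SE 0.17, adjusted p = 0.221). Fat2, known from cerebellar granule cells, had a median of 0 CPM in every group.

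Calsyntenins divided likewise. Clstn2 had 71.0 to 131 CPM (median 122) in non-Tg neurons and 6.02 to 33.5 CPM (median 8.64) in non-Tg astrocytes, a log2 difference of 3.13 (SE 0.41, adjusted p = 9.27e-08). Clstn3, a synapse organiser, was higher by 4.05 (SE 0.63, adjusted p = 1.84e-06). Clstn1, a kinesin cargo adaptor, was not called (-0.18, adjusted p = 0.725; 0.000935 with RLE size factors).

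Protocadherins outside the clusters fell on both sides. The delta1 genes Pcdh7 and Pcdh11x were lower in neurons, by 1.29 (SE 0.19, adjusted p = 8.31e-07) and 1.73 (SE 0.33, adjusted p = 4.41e-05) on the log2 scale. Pcdh9 of the same class had the highest level of all members in every group, by the authors' RPKM, which divides by gene length. Its median was 11.99 RPKM in non-Tg neurons (8.08 to 15.8) and 14.5 RPKM in non-Tg astrocytes (11.4 to 23.4), so the ranges overlapped. The difference in counts was -0.49 (SE 0.17, adjusted p = 0.0213). It was -0.30 with RLE size factors and was not called (adjusted p = 0.162). Pcdh1 had a difference of 0.01 (adjusted p = 0.984).

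Of the delta2 genes, which act on actin through the WAVE complex, Pcdh19 was higher in neurons, with 49.7 to 91.8 CPM (median 81.9) against 0.985 to 19.5 CPM (median 10.9) and a log2 difference of 2.81 (SE 0.45, adjusted p = 2.80e-06). Pcdh19 lies on the X chromosome and is mutated in an epilepsy of girls. Pcdh8 was higher by 3.77 (SE 0.66, adjusted p = 1.37e-05), at a median of 16.3 CPM in neurons. Pcdh10 was lower by 1.72 on the log2 scale (SE 0.24, adjusted p = 2.38e-07). Pcdh17 was level, with medians of 181 and 218 CPM, a difference of -0.17 (SE 0.23, adjusted p = 0.572) and 0.02 with RLE size factors. Pcdh20 had 53.3 to 131 CPM (median 105) in non-Tg neurons and 2.46 to 20.7 CPM (median 5.46) in non-Tg astrocytes, a difference of 3.67 (SE 0.41, adjusted p = 4.15e-09). Pcdh15, the tip-link partner of Cdh23, was higher by 2.12 (SE 0.48, adjusted p = 4.21e-04).

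Levels per length were highest for Pcdh9 in every group. A median of at least 1 RPKM was reached by 57 members in non-Tg neurons, 60 in P301S neurons and 42 in either astrocyte group. These numbers count each of the 14 alpha and 21 gamma genes singly, though each cluster moved as a block. They are thus not numbers of independent genes, and the part of the clusters in their difference was not tested. In non-Tg neurons Cdh9 at 6.31 RPKM, Cdh11 at 4.98, Clstn2 at 4.15, Pcdh20 at 3.55, Fat3 at 3.39 and Cdh8 at 3.27 followed Pcdh9. The ranges of Cdh9 (5.34 to 8.01 RPKM) and Cdh11 (3.50 to 5.96 RPKM) overlapped, as did those of each of these neighbours. In non-Tg astrocytes the ranks after Pcdh9 were taken by gamma genes, whose counts are examined next, and outside the clusters Cdh20 had 5.12 RPKM, Pcdh7 4.06, Cdh19 3.37 and Pcdh17 3.33.

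The alpha cluster was higher in neurons and the gamma cluster higher in astrocytes, each as a block. All 14 alpha genes were higher in non-Tg neurons (median log2 difference 3.50, range 3.21 to 3.59) and all 21 gamma genes lower (median -2.64, range -3.11 to -2.06). The lowest and the median count of a cluster lay close together for alpha genes in both cell types and for gamma genes in astrocytes. In non-Tg neurons the alpha gene with the lowest count had 85.0% to 96.2% of the count of the median alpha gene. In non-Tg astrocytes it had 91.9% to 100%, with both genes at 6, 23, 6 and 7 counts in replicates 1 to 4. In P301S astrocyte replicate 5 all 14 were at 0. Pcdhac2 differed by 3.21, Pcdha11 by 3.42, Pcdha5 by 3.50 and Pcdha6 by 3.55, and among gamma genes Pcdhgc3 by -3.11, Pcdhga1 by -2.97, Pcdhgb4 by -2.66 and Pcdhgb5 by -2.57. In non-Tg astrocytes the lowest gamma gene had 84.8% to 93.1% of the median gamma gene. In neurons gamma genes lay further apart, with the lowest at 57.9% to 80.9% of the median gene in non-Tg and 66.7% to 81.0% in P301S libraries. The alpha and gamma genes share 36.4% to 98.3% and 39.5% to 45.5% of their exonic bases with other genes on the same strand (GENCODE vM21). How reads in shared exons were counted is not given. Alpha genes with equal counts, as above, cannot be taken to hold only reads unique to each gene. Whether shared reads entered every gene of a cluster was not tested, and values of single alpha and gamma genes are uncertain. For 12 of 34 matched genes exons also overlap a gene on the other strand, and whether the counting used strand is not given in the sources used here.

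**Figure D3:**
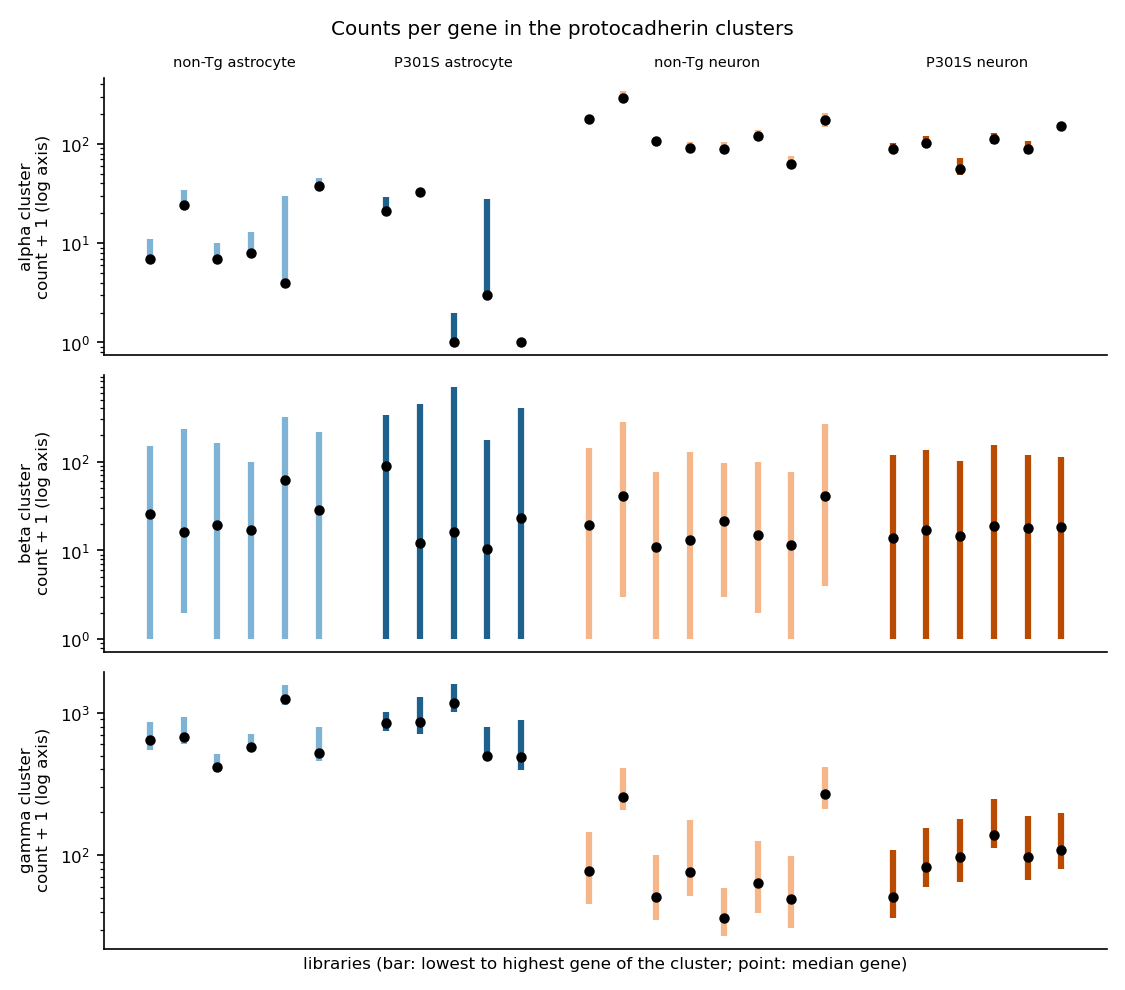
Count plus 1 (log axis) of the genes of each protocadherin cluster in each library; bars run from the lowest to the highest gene and points mark the median gene, with 14 alpha, 22 beta and 21 gamma genes. Alpha bars in neurons and gamma bars in astrocytes are short, gamma bars in neurons are longer, and beta bars start at 0 to 3 counts and reach up to 686.

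Taken as 1 feature, the lowest count of the alpha cluster was 28.0 to 80.3 CPM (median 52.3) in non-Tg neurons and 0.875 to 11.4 CPM (median 3.32) in non-Tg astrocytes. Its log2 difference was 3.49 (SE 0.59, adjusted p = 7.90e-06). The lowest count of the gamma cluster was 13.9 to 47.1 CPM (median 22.6) in non-Tg neurons and 152 to 332 CPM (median 198) in non-Tg astrocytes, a difference of -3.01 (SE 0.27, adjusted p = 2.40e-11). With each cluster entered in this way, 17 of 59 features were higher and 15 lower in neurons. Summed over its genes, the gamma cluster took a median of 0.458% of all counts in non-Tg astrocytes and 0.0884% in non-Tg neurons. The alpha sums were 0.00474% and 0.0867%. Reads in shared exons may have entered several of these counts, so that both sums may hold the same read repeatedly, which was not tested.

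The count that each gene held above the lowest gene of its cluster was also taken, a choice made after seeing the data. It is near 0 by construction for a gene at or next to the lowest, and for alpha genes in non-Tg astrocytes its median was 0 to 2.5 counts, so it is given here as a description. Pcdhgc3, a C-type gene expressed outside the random choice of exons, had 32 to 176 counts above the lowest gene in non-Tg astrocytes (median 68.0) and 0 to 14 in non-Tg neurons (median 1.5). The C-type gene Pcdhgc4 had 6 to 42 (median 33.0) and 0 to 3 (median 0). By these medians Pcdhgc3 and Pcdhgc4 were at or next to the lowest gamma gene in non-Tg neurons. Gamma counts as a whole were higher in astrocytes, so the excess is also given as a share of the gene's counts. For Pcdhgc3 the share was 11.8% in non-Tg astrocytes, 4.48% in non-Tg neurons and 3.94% in P301S neurons. For Pcdhgc4 it was 4.41%, 1.08% and 5.26%. For Pcdhga10 and Pcdhgb1 the excess was 57.0% and 54.0% of the gene's counts in non-Tg neurons, against 28.9% and 29.9% in non-Tg astrocytes. Of the Pcdhga10 exonic bases 44.8% are shared on the same strand and 55.2% lie opposite a gene on the other strand. For Pcdhgc3 32.3% lie opposite such a gene, and for Pcdhgb1 0%. The part of reads from the other strand in these excess counts was not tested. In non-Tg neurons the excess was called lower for 11 of 21 gamma genes, in a fit that called 6631 of 14156 genes in either direction. The 8 alpha genes tested were near 0 in astrocytes by this measure and passed the filter on low counts through the neuron libraries. All 8 were called higher, an outcome fixed in advance that is not read as a result. For Pcdhga7, Pcdhga8 and Pcdhgb2 the full counts were called lower in neurons, and the excess was not (adjusted p = 0.237, 0.132 and 0.751). In P301S mice the excess was called lower in neurons for 16 of 21 gamma genes, Pcdhga7 and Pcdhga8 among them (adjusted p = 0.00228 and 0.000157). Over all genes this comparison called 7392 of 14156 in either direction.

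The beta genes, which have no constant exons, did not form a block. Of 21 tested, 1 was higher and 2 lower in non-Tg neurons. Pcdhb10 was higher by 1.38 (SE 0.55, adjusted p = 0.0380), and Pcdhb14 and Pcdhb8 were lower by 1.18 (SE 0.34, adjusted p = 0.00423) and 1.33 (SE 0.47, adjusted p = 0.0195) on the log2 scale. Pcdhb9 differed by 1.64 (adjusted p = 0.0544) and was called with RLE size factors (1.83, adjusted p = 0.0316), DESeq2 and voom. With voom Pcdhb8 was not called (-0.82, adjusted p = 0.0699) and Pcdhb15 was (-0.80, adjusted p = 0.0105). Pcdhb16 and Pcdhb17 had the highest level per length of the cluster in non-Tg astrocytes and were not called (adjusted p = 0.355 and 0.145).

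Genes that control or act with the family were counted too. Of 10 regulators of the protocadherin clusters 1 was higher and 2 lower in non-Tg neurons, all by less than 1 on the log2 scale. The cohesin genes Stag1 and Smc1a differed by 0.72 (SE 0.25, adjusted p = 0.0163) and -0.67 (SE 0.24, adjusted p = 0.0199), and the cohesin loader gene Nipbl by -0.49 (SE 0.19, adjusted p = 0.0287). Of 9 protocadherin effectors 4 were higher, led by the focal adhesion kinase relative Ptk2b at 3.55 (SE 0.35, adjusted p = 2.74e-10) and the WAVE complex genes Cyfip2 at 3.17 (SE 0.35, adjusted p = 3.41e-09) and Wasf1 at 2.75 (SE 0.31, adjusted p = 6.09e-09), and 1 was lower. Of 16 catenins and junction partners 3 were higher and 9 lower. Vinculin (Vcl), delta-catenin (Ctnnd2) and alpha-E-catenin (Ctnna1) were lower by 1.95 (SE 0.20, adjusted p = 5.95e-10), 2.07 (SE 0.21, adjusted p = 6.33e-10) and 2.54 (SE 0.30, adjusted p = 1.12e-08) on the log2 scale. Of 7 proteases that cleave cadherins 2 were lower, Adam17 by 1.09 (SE 0.37, adjusted p = 0.0142) and the gamma-secretase subunit gene Aph1b by 0.87 (SE 0.36, adjusted p = 0.0460). Of 2 other superfamily genes tested, the photoreceptor cadherin Cdhr1 was higher by 2.16 (SE 0.79, adjusted p = 0.0232). Over all genes 46.9% were called in this comparison.

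In P301S mice the same comparison of cell types called 31 members higher and 41 lower in neurons, where 23.2% and 29.0% of all genes were called. The 14 alpha genes were all among those higher and the 21 gamma genes all among those lower. As in non-Tg mice, the genes of a cluster are not independent of each other. Cdh9 differed by 7.21 (SE 0.54), Cdh8 by 6.35 (SE 0.53) and Celsr3 by 4.92 (SE 0.49). Cdh19 differed by -5.47 (SE 0.58), Cdh20 by -4.40 (SE 0.45) and Celsr1 by -5.26 (SE 0.55), each with an adjusted p of 1.79e-09 or less. The groups did not overlap for 26 members higher and 29 lower, and for 29.7% of all genes. Outside the alpha and gamma clusters these were 12 and 8 of 57 members. The 5 P301S astrocyte libraries had 1.97, 0.315, 0, 0.755 and 0.374 CPM of Cdh9, all low. They had 32.4, 169, 48.9, 128 and 86.4 CPM of Cdh19, and 61.1, 107, 213, 49.1 and 45.3 CPM of Cdh20, and so were much less even for Cdh20 than the non-Tg astrocyte libraries.

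Between genotypes 1 member was called in astrocytes and none in neurons. In astrocytes 80 members were tested, and 0.544% of all 12130 genes tested were called, 0.519% higher and 0.0247% lower. In neurons 83 members were tested, and 0.00913% of 10951 genes, that is 1 gene, were called. At an unadjusted p under 0.05 there were 7 members in each cell type, which is 8.75% of those tested in astrocytes and 8.43% in neurons. Over all genes these shares were 13.4% and 7.73%. Of the astrocyte markers 1 of 10 was called, Gfap, which was higher in P301S astrocytes.

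The called member was Celsr2, on chromosome 3 from 108390848 to 108416069 (GRCm38). The 5 P301S astrocyte libraries had 125, 180, 155, 520 and 171 CPM, from 414 to 688 counts. The 6 non-Tg astrocyte libraries had 52.0 to 97.1 CPM with a median of 69.2, from 131 to 279 counts. All 5 P301S libraries lay above all 6 non-Tg libraries, 1 of them far above the others; such separation occurred for no other tested member and for 2.14% of all genes. The log2 difference was 1.66 (SE 0.35, adjusted p = 0.0339). In neurons Celsr2 had 49.1 to 75.2 CPM in P301S (n = 6) and 38.4 to 95.6 CPM in non-Tg libraries (n = 8), a difference of -0.02 (SE 0.20, adjusted p = 0.984).

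The Celsr2 call is close to the threshold. Without the highest library, P301S astrocyte replicate 4, the difference was 1.11 and was not called (adjusted p = 0.0640). It was not called either without non-Tg astrocyte replicate 1, 2, 3, 5 or 6 in turn (adjusted p = 0.0619 to 0.103). With the number of genes detected as a covariate the difference was 0.68 (adjusted p = 0.998). Genes detected ran from 13894 to 18997 in P301S and from 17417 to 21050 in non-Tg astrocyte libraries, and the oligodendrocyte markers given above were higher in 4 of the 5 P301S libraries than in all but 1 non-Tg library. The part of these markers in the Celsr2 difference was not tested. The difference between the genotype effects in astrocytes and in neurons was 1.68 (SE 0.41, adjusted p = 0.0514), so an effect particular to astrocytes was not called. No member was called in that comparison, where 0.394% of 14197 genes were, and 12 members (13.0%) had an unadjusted p under 0.05, against 14.8% of all genes.

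Celsr1 and Celsr3 did not pass the threshold in astrocytes. P301S astrocyte libraries had 65.0, 15.4, 69.9, 32.5 and 64.7 CPM of Celsr1, with a log2 difference of 0.35 (SE 0.47, adjusted p = 0.788). They had 12.4, 6.93, 1.12, 1.51 and 10.8 CPM of Celsr3, with a difference of -0.98 (SE 0.78, adjusted p = 0.608). Both overlapped the non-Tg libraries.

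**Figure D4:**
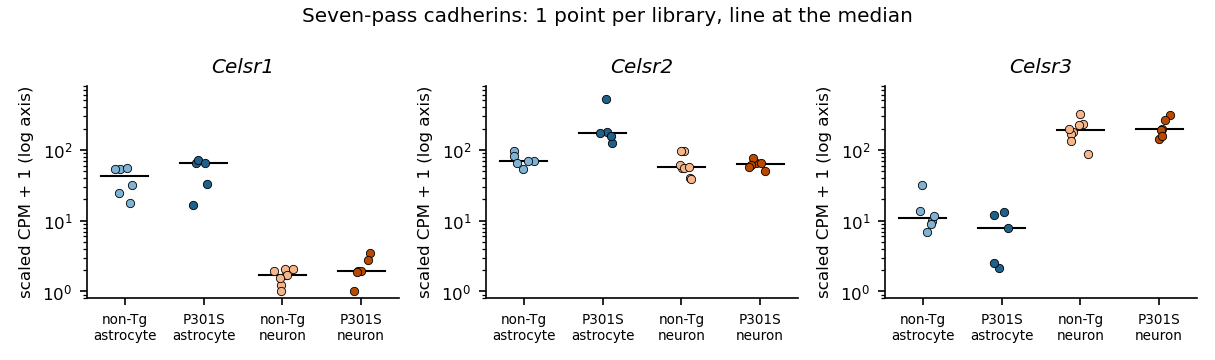
Scaled CPM plus 1 (log axis) of the 3 Celsr genes in each library, by group (n = 6, 5, 8 and 6 from left to right); lines are medians. Celsr1 is high in astrocytes, Celsr3 in neurons, and Celsr2 is higher in all 5 P301S astrocyte libraries (125 to 520 CPM) than in the 6 non-Tg ones (52.0 to 97.1 CPM).

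The astrocyte members with the next smallest p were Pcdhb7, Fat3 and Pcdhb16. Pcdhb7 had 24.8, 2.83, 138, 0 and 7.85 CPM in P301S and 1.90 to 15.95 CPM in non-Tg astrocytes, a log2 difference of 2.42 (SE 0.96, adjusted p = 0.268). P301S replicate 3 alone gave 370 of the 488 P301S counts, and without it the difference was 0.50. Fat3 had 215, 330, 377, 368 and 234 CPM against 323 to 692 CPM, a difference of -0.59 (SE 0.25, adjusted p = 0.306). Pcdhb16 had 94.9, 118, 256, 85.3 and 75.5 CPM against 47.3 to 92.4 CPM, a difference of 0.83 (SE 0.36, adjusted p = 0.314). In neurons the smallest p were those of Pcdh19 (-0.55, SE 0.17, adjusted p = 0.361), Pcdh20 (-0.59, SE 0.19, adjusted p = 0.454), Pcdhb10 (-0.64, SE 0.26, adjusted p = 0.600) and Fat4 (-0.46, SE 0.20, adjusted p = 0.629). Pcdh19 had 35.8 to 66.8 CPM in P301S and 49.7 to 91.8 CPM in non-Tg neurons, and Pcdh20 had 49.9 to 80.1 CPM and 53.3 to 131 CPM, so the groups overlapped for both. Pcdh19 was called without non-Tg neuron replicates 5 and 8, which are labelled with identifiers from a separate range (-0.66, adjusted p = 0.0445).

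**Figure D5:**
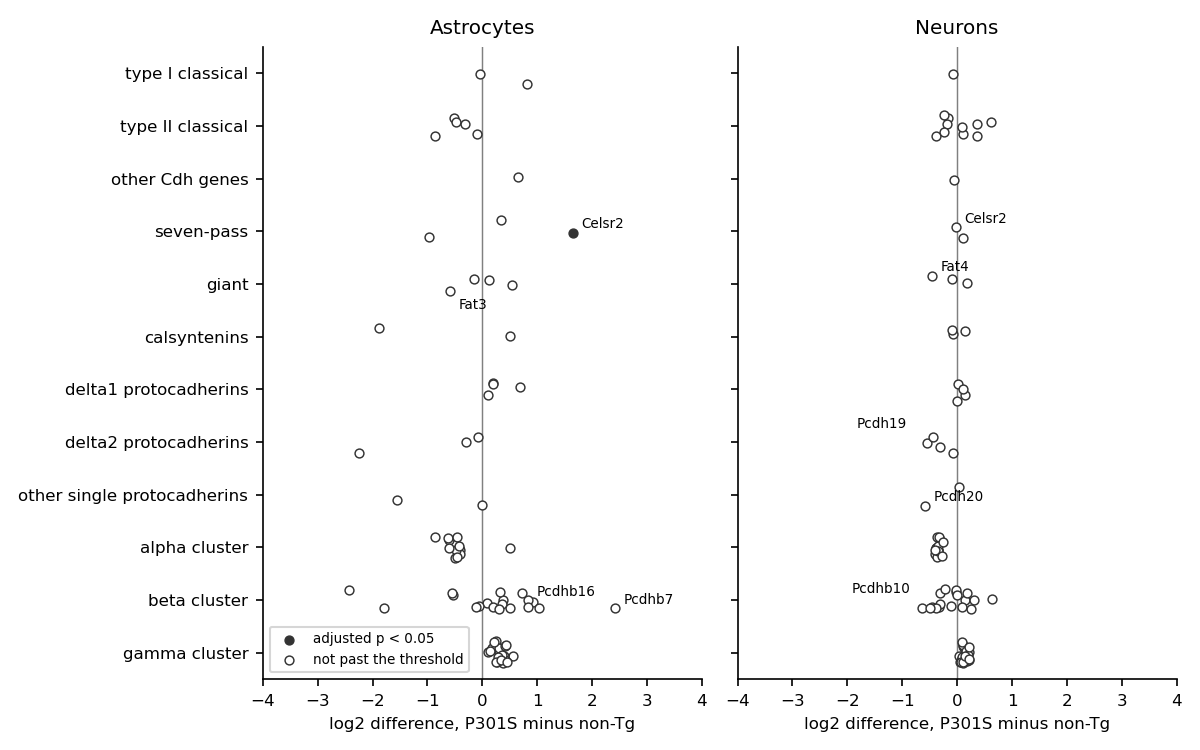
Log2 difference between P301S and non-Tg libraries for the 80 members tested in astrocytes (left, 5 against 6 libraries) and the 83 tested in neurons (right, 6 against 8), by class; filled points passed an adjusted p of 0.05. Only Celsr2 in astrocytes is filled, at 1.66; neuron values lie between -0.64 and 0.63, astrocyte values between -2.42 and 2.42.

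No gene of the 3 clusters was called between genotypes. The 19 beta genes tested in astrocytes had a median log2 difference of 0.31 (-2.42 to 2.42), and the 18 tested in neurons had -0.07 (-0.64 to 0.63). The lowest alpha count differed by -0.42 (SE 1.05, adjusted p = 0.901) in astrocytes and -0.38 (SE 0.23, adjusted p = 0.731) in neurons, and the lowest gamma count by 0.25 (SE 0.29, adjusted p = 0.741) and 0.15 (SE 0.23, adjusted p = 0.909). In P301S astrocyte libraries the lowest alpha gene had 20, 32, 0, 2 and 0 counts, so the error of that difference is large. The gamma counts above the lowest gene had a median difference of 0.95 over 20 genes tested in astrocytes, from -0.64 to 1.92, with 0 called. Among them Pcdhga12 differed by 1.76 (SE 0.46, adjusted p = 0.0841) and Pcdhgc5 by 1.92 (SE 0.52, adjusted p = 0.1004). None of the genes of the 6 partner lists was called between genotypes in either cell type or in the difference between them.

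P301S astrocyte libraries were the most uneven for these genes. Across the 92 members tested in all groups, the median SD of log2(CPM + 1) between libraries was 0.96 in P301S astrocytes, 0.63 in non-Tg astrocytes, 0.34 in P301S neurons and 0.47 in non-Tg neurons. A single library gave more than 50% of the group's summed CPM for 32 of 88 members with at least 20 counts in P301S astrocytes, for 7 of 92 in non-Tg astrocytes, 2 of 92 in P301S neurons and 0 of 90 in non-Tg neurons. Such a share is easier to reach in a group of fewer libraries, and P301S astrocytes had the fewest. The SD and this share are not given over all genes, so the unevenness cannot be called particular to these members. Of the 32, 13 were alpha genes led by replicate 2 and so are about 1 measurement. Which library led varied from gene to gene. Pcdhb12 had 232 of 247 counts in replicate 2, Pcdhb13 298 of 425 in replicate 1, Pcdh12 164 of 164 in replicate 3 and the endothelial cadherin Cdh5 58 of 59 in replicate 5. Of the Pcdhb12 exonic bases 63.5% lie opposite a gene on the other strand. The endothelial markers summed to at most 9.29 CPM in P301S astrocyte libraries, and Cldn5 and Esam were at 0 in all of them.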

How the data were processed

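Gene counts and size-factor-adjusted RPKM values were deposited by the authors for 25 libraries, per the file headers. Reads had been aligned with GSNAP to GRCm38, per the submitters' processing notes. The counting rule for shared exons and strand is not given in the sources used here. Entrez IDs were matched to RefSeq symbols, and 5479 of 36528 IDs, with 3.30% of the counts, had none. Totals of 1.25e+06 to 4.45e+06 counts set the precision, and a floor of 3 counts covers counting error only.

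Counts were tested with edgeR 4.0.16 (R 4.3.3; TMM factors, filterByExpr, robust quasi-likelihood F test), with Benjamini-Hochberg adjustment over all genes tested and calls at an adjusted p under 0.05. The SE is the log2 difference divided by the square root of F. Genotypes were compared within a cell type. Cell types, and the difference of genotype effects, came from 1 fit of all 25 libraries. RPKM served only to compare levels between genes. Scripts were tested on simulated data.

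Named members were those called for genotype, the 4 with the smallest p per genotype comparison, the 12 with the smallest p per direction between cell types, and the 2 with the highest RPKM per class and cell type. Up to 3 genes per partner list were named. Others named were chosen after their values were seen. The members and lists were chosen with earlier results of these data known. Alternatives were RLE size factors, DESeq2 1.42.0, limma 3.58.1 voom with quality weights, no filter, other sets of libraries in the fit, genes detected as a covariate, each library left out, the libraries of another identifier range left out, means in place of medians, and shares without Malat1 and mitochondrial genes. After seeing the data, the lowest count of a cluster was subtracted, or each cluster was entered as 1 feature.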

Additional observations from a re-analysis of the deposited data

Results flagged for a closer look

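Of 64 combinations of a named member and a group that were screened for a library far from the rest, 11 (17.2%) held one. The nominal rate of the rule was 1 in 20. These genes come from the same libraries and were named partly for their values here. No rate over all genes is given, so the 17.2% cannot be set against chance. In P301S astrocytes, Celsr2 had 520 CPM in replicate 4 (next 180), Pcdhb16 256 CPM in replicate 3 (next 118), Pcdhb7 138 CPM in replicate 3 (next 24.8), Pcdhb10 14.96 CPM in replicate 5 (next 2.82) and Pcdh19 7.55 CPM in replicate 4 (next 1.97). In non-Tg astrocytes, Fat4 had 132 CPM (next 65.6) and Pcdh20 20.7 CPM (next 7.69) in replicate 5, and Cdh12 5.39 CPM in replicate 2 (next 2.34). In neurons, Cdh19 had 7.90 CPM in P301S replicate 1 (next 1.82), and Cdh20 had 14.4 CPM (next 5.84) and Pcdhb7 16.01 CPM (next 7.93) in non-Tg replicate 5, a library of the other identifier range.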

How the results depend on the processing

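No paired analysis was possible because the labels give no replicate numbers and do not tie neuron and astrocyte libraries to animals. Members called between genotypes in astrocytes numbered 1, and 4 without a filter (2.04% of all genes called), 9 (3 higher, 6 lower) with all 25 libraries in 1 fit (11.8%), 0 with genes detected as a covariate (0.0495%) and 0 to 1 without single libraries. In neurons they numbered 0, and 1 without the 2 libraries of another identifier range (0.36%) and 0 to 0 without single libraries. For the difference of genotype effects they numbered 0, and 1 with RLE size factors (0.479%), 2 with DESeq2 (2.99%) and 0 to 3 without single libraries. Between cell types, single libraries left out gave 29 to 32 higher and 33 to 36 lower in non-Tg mice, and 30 to 32 higher and 38 to 41 lower in P301S mice. Clusters entered as 1 feature gave 17 and 15, and 18 and 21. The cause of these changes beyond the number of genes and samples was not tested.

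Celsr2 in astrocytes was called with RLE size factors (1.71, adjusted p = 0.0309), DESeq2 (1.71, adjusted p = 0.00189), voom (1.30, adjusted p = 0.0248), no filter (1.61, adjusted p = 0.000921) and all 25 libraries (1.67, adjusted p = 0.00154), and ranged from 1.11 to 1.82 without single libraries. The difference of its genotype effects was called with RLE size factors (1.76, adjusted p = 0.0455) and DESeq2 (1.76, adjusted p = 0.00886), not with voom (1.25, adjusted p = 0.367), and ranged from 1.15 to 1.83.

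The sign turned, for members not past the threshold, for Clstn1 (0.000935 with RLE, 0.000795 with DESeq2), Pcdh17 (0.022 with RLE, 0.0214 with DESeq2), Pcdh1 (-0.0958 without the other identifier range, -0.138 to 0.258 without single libraries, 6 of them negative), Pcdhb13 (-0.00937 to 0.433 without single libraries) and Pcdhb7 (-0.19 without the other identifier range, -0.0662 to 0.662 without single libraries). Without Malat1 and mitochondrial genes the cluster shares rose to 0.0967% and 0.116% (alpha, P301S and non-Tg neurons), 0.0788%, 0.0620%, 0.0482% and 0.0466% (beta, P301S and non-Tg astrocytes, then neurons) and 0.752%, 0.712% and 0.145% (gamma, P301S and non-Tg astrocytes, P301S neurons). Low counts limit the alpha values in astrocytes, where the lowest gene had 0 to 34 counts. Median library totals were 3.27e+06 in non-Tg and 3.48e+06 in P301S astrocytes, against 1.79e+06 and 2.01e+06 in neurons.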
